A study of Homo sapiens with 9 samples.

Results

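NKX2-1 (TTF-1) is a homeobox protein that directs the development of lung and thyroid and keeps distal lung epithelium differentiated. Some lung adenocarcinomas carry extra copies of its gene. It often binds beside FOXA1, a forkhead factor that can bind its sites in closed chromatin and is needed for the opening of many endodermal enhancers. The regions described here held an NKX2-1 peak in H3122 and in H1819 cells and none in H2087 cells, and are called H3122/H1819 regions. They were selected on the presence of called peaks, by merging all overlapping peaks of 4 NKX2-1 lists on chromosomes 1 to 22 and X, and by keeping merged regions with a peak of H3122 replicate 2 and of H1819 and no peak of H2087. This gave 4256 of 59679 merged regions, or 7.13%.

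The lists came from chromatin immunoprecipitation followed by sequencing in NCI-H3122, NCI-H1819 and NCI-H2087, 3 established lung adenocarcinoma lines that carry an NKX2-1 amplification per the labels. All were grown in RPMI medium with serum and fixed with formaldehyde, and NKX2-1 was precipitated in each with the same Bethyl Laboratories antibody. H3122 had 2 NKX2-1 libraries, H1819 and H2087 had 1 each, and FOXA1 was precipitated in H3122 alone, with 1 library. Another 4 libraries were inputs, which are not analysed here. Nothing says that the H3122 libraries came from separate cultures, and the spread between them may be technical only. The lists differed in length, with 48071 peaks in H3122 replicate 2, 7469 in replicate 1, 13486 in H1819, 14441 in H2087 and 42437 for FOXA1. The number of reads behind the lists is unknown, and a region without a peak is one where none passed the authors' threshold, not one shown to be unbound.

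Membership required peaks of both lists in the same merged region, so direct overlap of the 2 was largely set by the rule. In all 4256 regions the best replicate 2 peak and the best H1819 peak overlapped directly, by at least 1 bp and a median of 466 bp. Their centres lay a median of 65 bp apart (quartiles 29 and 122 bp), and within 100 bp in 2892 regions, or 67.95%. In 79 regions the centres were over 500 bp apart, and in 34 the overlap was under 100 bp. One peak of each list made up 4150 of the regions. The median width of a region was 774 bp (quartiles 642 and 968 bp). Of the 6998 merged regions with peaks of both replicate 2 and H1819, these 4256 were the 60.8% without H2087. The remaining 2742 were common to all 3 lines and are called 3-line regions.

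The rule used presence of a peak, so the scores of the peaks are given as a description. The score is the authors' own value per peak, read as 10 times the negative log10 of its p-value. Scores are strongly tied at 3100, with a few above it, so peaks near that value are not ranked reliably. The lowest score was 50 in the replicate 1 list and between 60 and 60.02 in the others. In replicate 2 the H3122/H1819 regions scored between 60.2 and 3100, with a median of 219 (quartiles 118 and 456). In H1819 they scored between 60.04 and 3201, with a median of 143 (quartiles 84.7 and 286). Weak and strong peaks were both common. Scores were under 100 in replicate 2 in 782 regions, in H1819 in 1425 and in both in 320, while 246 regions were in the highest score decile of both lists. The H3122/H1819 regions made up 4.28% of the regions in the lowest decile of replicate 2 scores and 18.3% in the highest. Such a rise was not particular to them, since 3-line regions went from 1.01% to 16.5%. In H1819 they made up 27.7% of the lowest decile and 43.1% of the highest, whereas 3-line regions made up 17.0% and 20.2%. The class was thus larger among strong H1819 peaks than among weak ones. Over the 4256 regions Spearman's rho between the replicate 2 and H1819 scores was 0.26, and over the 3-line regions it was 0.47; both are descriptions over regions of the same libraries.

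**Figure D1:**
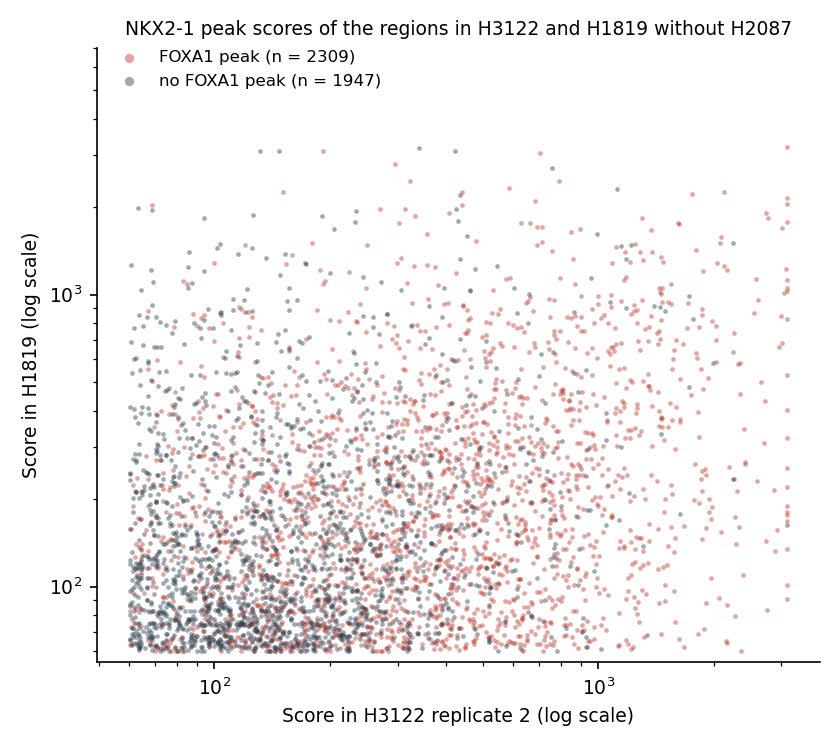
Each point is 1 of the 4256 H3122/H1819 regions, with its NKX2-1 score in H3122 replicate 2 on the x axis and in H1819 on the y axis, both on log scales, coloured by whether a FOXA1 peak lay in it. The scores are loosely related (rho 0.26), regions with FOXA1 lie mainly to the right, and points line up at 3100, a score that many strong peaks share.

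By mean rank of score in the 2 lists, the first region was in band 3q13.12, at chromosome 3, 109484201 to 109485227 (hg18). Its scores were 3100 in H3122 replicate 2, 1246 in replicate 1 and 3201 in H1819, the last 2 being the highest listed for any of these regions. The FOXA1 peak in it scored 603, and the nearest H2087 peak was 149 kb away. The second, in 8q23.2, scored 3100, 363 and 2141 in the same order, with a FOXA1 score of 2845. The region after it, in 4p15.2 (chromosome 4, 25057016 to 25057926), scored 3100, 706 and 2041, with a FOXA1 score of 211. The next, in 10q23.31 (chromosome 10, 89931193 to 89932338), scored 2729, 189 and 1909 and had a FOXA1 peak at 3100. The others of the first 10 lay in 3q12.3, 12q12, 4p15.33, 5p13.2, 4q24 and 1p36.23. All of the 10 had a FOXA1 peak and a replicate 1 peak. Their FOXA1 scores ran from 86.5 in 1p36.23 to 3100 in 10q23.31, so a high NKX2-1 score in both lines went with weak as well as strong FOXA1 peaks. Distance to H2087 varied as widely, from 4.25 kb in 1p36.23 to 1546 kb in 8q23.2. The first 100 regions held FOXA1 in 85 cases and replicate 1 in 83, and the last 100 held them in 25 and 3. Among all 880 H3122/H1819 regions in the highest decile of replicate 2 scores, FOXA1 was in 86.6% and replicate 1 in 58.4%.

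FOXA1, which the rule did not use, lay in the majority of the H3122/H1819 regions, a larger share than in any other class of region with an H3122 replicate 2 peak. A FOXA1 peak was present in 2309 of the 4256 regions, 54.3% (95% Wilson interval 52.75 to 55.7), against 39.7% of all merged NKX2-1 regions and 48.0% of those with a replicate 2 peak. The share was 44.5% (42.6 to 46.3) in 3-line regions and 44.8% (43.6 to 46.0) in the 6598 regions of H3122 and H2087 without H1819, called H3122/H2087 regions. It was 48.1% (47.5 to 48.6) in the 34155 regions of H3122 replicate 2 without either other line, called H3122-only regions. The H3122/H1819 share was 9.80 percentage points above 3-line regions (Newcombe 95% interval 7.40 to 12.2; Fisher's exact test, adjusted p = 2.02e-15). It was 9.47 points above H3122/H2087 regions (7.54 to 11.4; Fisher's exact test, adjusted p = 1.24e-21) and 6.18 points above H3122-only regions (4.59 to 7.77; Fisher's exact test, adjusted p = 3.55e-14). These tests were two-sided and adjusted over 6 differences by the Benjamini-Hochberg method. They count regions, which are not replicate cultures and can neighbour each other, so the p-values describe these lists. The share in H3122/H1819 regions was above that in 3-line regions on 18 of 23 chromosomes, above that in H3122/H2087 regions on 21 and above that in H3122-only regions on 22.

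**Figure D2:**
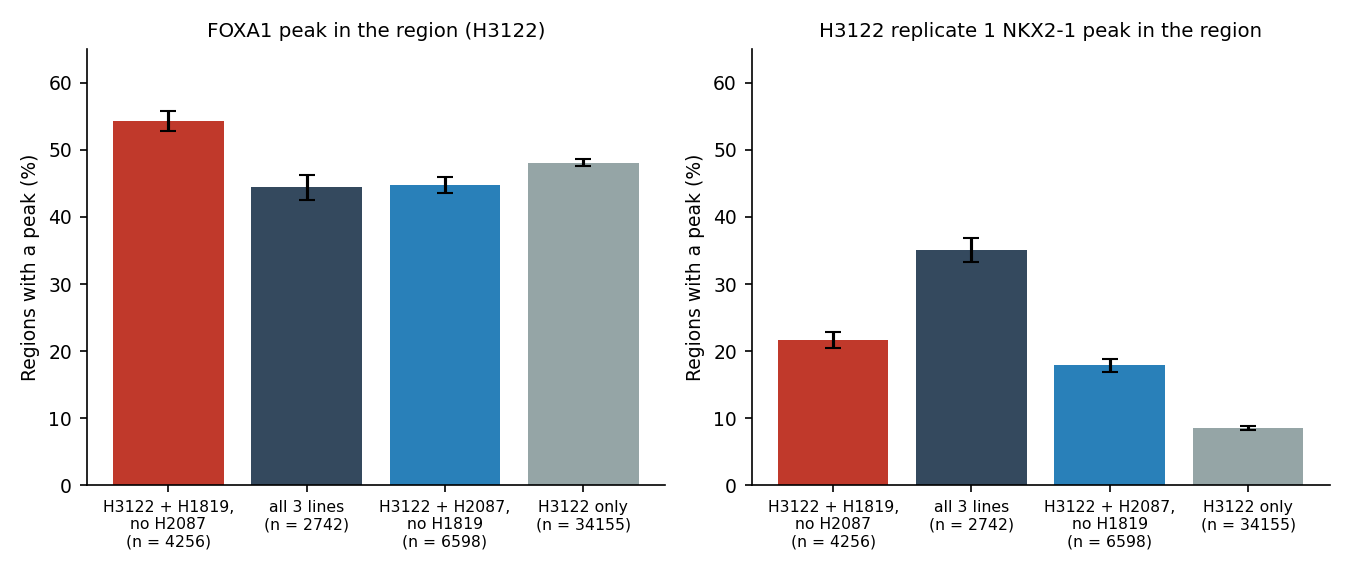
Bars give the percentage of regions holding a FOXA1 peak (left) and a replicate 1 NKX2-1 peak (right) in 4 classes of region with an H3122 replicate 2 peak, with 95% Wilson intervals. FOXA1 was most frequent in H3122/H1819 regions, at 54.3%, while replicate 1 was most frequent in 3-line regions, at 35.1%.

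Score and width moved with these classes. The median replicate 2 score was 219 in H3122/H1819 regions, 317 in 3-line regions, 186 in H3122/H2087 regions and 119 in H3122-only regions, and the median widths were 774, 1064, 892 and 619 bp in that order. Within deciles of the replicate 2 score the excess over 3-line regions widened to 16.9 points (14.8 to 19.1) and that over H3122/H2087 regions narrowed to 5.69 points (3.93 to 7.46), with Cochran-Mantel-Haenszel adjusted p-values of 1.10e-48 and 3.14e-10. The excess over H3122-only regions did not hold. At matched scores the difference from them was -6.30 points (-7.79 to -4.82, chi-square test of Cochran, Mantel and Haenszel, adjusted p = 1.75e-16), so that the H3122/H1819 share was the lower one. At matched widths the difference was -0.94 points (-2.54 to 0.658, chi-square test of Cochran, Mantel and Haenszel, adjusted p = 0.257). At matched replicate 2 scores the FOXA1 share of H3122/H1819 regions thus lay between that of H3122-only regions above it and those of the classes with H2087 below it. In score decile 8 the shares were 56.6% of 555 H3122/H1819 regions, 32.2% of 428 3-line regions, 51.6% of 845 H3122/H2087 regions and 66.1% of 2956 H3122-only regions. In the lowest 3 deciles the intervals of the H3122/H1819 and 3-line regions overlapped.

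**Figure D3:**
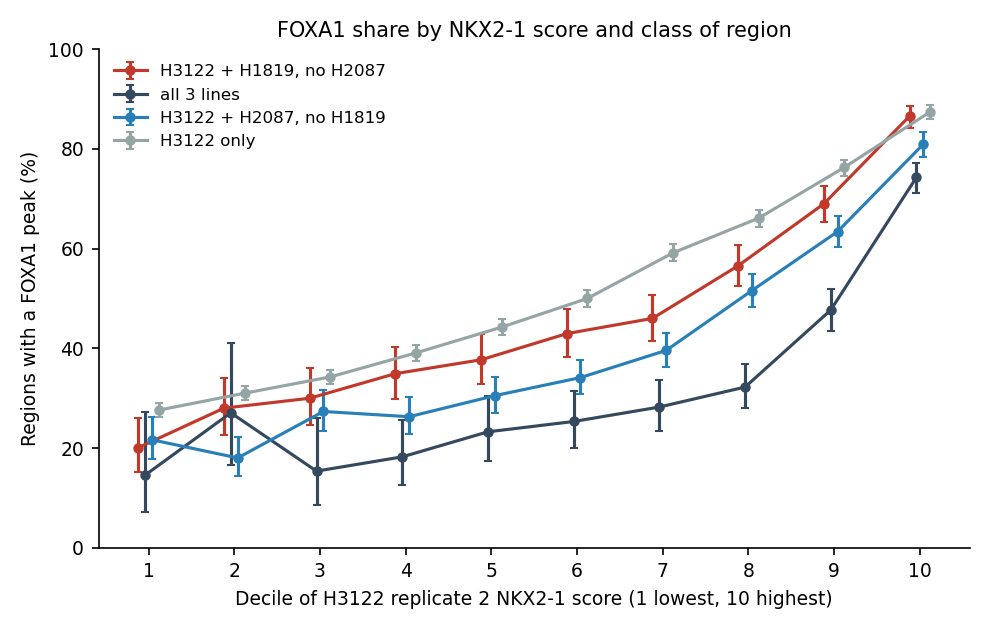
The percentage of regions holding FOXA1 (y axis) is plotted by decile of the H3122 replicate 2 NKX2-1 score (x axis) for the 4 classes, with 95% Wilson intervals. From decile 3 up, the curve of H3122/H1819 regions runs above that of 3-line and H3122/H2087 regions, and up to decile 10 it stays below that of H3122-only regions.

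Among the H3122/H1819 regions, FOXA1 went with the H3122 score far more than with the H1819 score. With the regions split by replicate 2 score into 4 groups of equal size, it was found in 29.7% in the lowest, 43.1% and 59.5% in the next ones and 84.7% (82.4 to 86.7) in the highest. Split in the same way by H1819 score, the shares were 44.6%, 48.0%, 58.4% and 65.9%. With both scores split at their medians, FOXA1 differed by either score within each part of the other. Where the replicate 2 score was in the upper part, above its median, FOXA1 was in 75.2% (72.7 to 77.5) of regions with an upper H1819 score and 67.5% (64.3 to 70.6) of those with a lower one. Where it was in the lower part the shares were 42.9% (39.6 to 46.2) and 32.1% (29.6 to 34.7). The parts are broad and the 2 scores were related (rho 0.26). Whether the H1819 score went with FOXA1 apart from the replicate 2 score was not tested. In the 246 regions in the highest decile of both lists FOXA1 was found in 214, 87.0% (82.2 to 90.6). That was close to the share in the highest replicate 2 decile whatever the H1819 score. There it was 86.6% of H3122/H1819 regions and 87.5% of H3122-only regions, which have no H1819 peak. FOXA1 was measured in H3122 only, so these values say nothing of FOXA1 in H1819.

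Where FOXA1 was present its centre mostly lay near those of the NKX2-1 peaks. A FOXA1 peak counted only if it overlapped the region, so short distances were largely set by that rule. The median distance from the FOXA1 centre was 75 bp to the replicate 2 centre and 78 bp to the H1819 centre, and 1416 of 2309 FOXA1 centres, or 61.3%, lay within 100 bp of the replicate 2 centre. The median distance to the replicate 2 centre was 103 bp in 3-line regions, 88 bp in H3122/H2087 regions and 71 bp in H3122-only regions. Across the classes these medians fell in the same order as the median widths of the regions. Most regions had a single FOXA1 peak; 75 had 2 or more. The FOXA1 score in H3122/H1819 regions had a median of 251 (quartiles 122 and 621), with 239 in 3-line regions, 205 in H3122/H2087 regions and 208 in H3122-only regions. Over the regions with FOXA1, its score had a Spearman's rho of 0.39 with the replicate 2 score and 0.07 with the H1819 score. FOXA1 and replicate 2 came from the same line, FOXA1 and H1819 from different ones.

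Strong binding without FOXA1 also occurred. The 1947 regions without a FOXA1 peak had a median score of 144 in replicate 2 and 119.8 in H1819, and those with one had 342 and 172. By mean rank the first regions with neither FOXA1 nor a replicate 1 peak were in 8q21.11 and 8p21.3. The next was in 14q12 (chromosome 14, 31764652 to 31765643), with scores of 1075 in replicate 2 and 941 in H1819. A region in 3q26.32 (chromosome 3, 178188295 to 178189664) scored 759 and 2709, and one in 6q15 (chromosome 6, 90952668 to 90953765) scored 865 and 869. The first of the 5, in 8q21.11, scored 1183 and 1327.

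The shorter replicate 1 list, which shared in the merging but not in the choice of members, held a peak in 920 of the 4256 regions, 21.6% (20.4 to 22.9). Its share was 12.3% of all merged regions and 12.5% of those with a replicate 2 peak. The H3122/H1819 share was -13.5 points from the 35.1% of 3-line regions (-15.6 to -11.3; Fisher's exact test, adjusted p = 2.44e-34) and 13.09 points above the 8.52% of H3122-only regions (11.85 to 14.4; Fisher's exact test, adjusted p = 4.81e-128). It was 3.75 points above the 17.9% of H3122/H2087 regions (2.21 to 5.30; Fisher's exact test, adjusted p = 1.55e-06). At matched replicate 2 scores this last difference was -0.26 points (-1.60 to 1.07, chi-square test of Cochran, Mantel and Haenszel, adjusted p = 0.72), while the other 2 became -7.11 and 4.58 points and kept their direction. At like replicate 2 scores, H3122/H1819 regions were thus found in replicate 1 less often than 3-line regions and more often than H3122-only regions. Regions with a replicate 1 peak had a median score of 627 in replicate 2 and 197 in H1819, against 174 and 134 in those without. The replicate 1 scores had a median of 80.5 (quartiles 66.4 and 118), and the highest was the 1246 in 3q13.12. FOXA1 and replicate 1 were found together in 640 regions, FOXA1 alone in 1669, replicate 1 alone in 280 and neither in 1667.

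Most H3122/H1819 regions had no called H2087 peak within 1 kb. H2087 signal below the calling threshold was not examined, so distance does not show that H2087 lacked binding in the regions. The nearest H2087 peak lay a median of 70.8 kb away, and within 1 kb in 118 regions (2.77%, 2.32 to 3.31) and within 10 kb in 696 (16.4%, 15.3 to 17.5). H3122-only regions lay a median of 96.5 kb from an H2087 peak, with 2.61% (2.44 to 2.78) within 1 kb and 13.7% (13.4 to 14.1) within 10 kb. H1819-only regions, with an H1819 peak and none of replicate 2 or H2087, lay a median of 80.1 kb away, with 2.09% (1.76 to 2.48) within 1 kb and 13.7% (12.9 to 14.6) within 10 kb. Within 100 kb the shares were 57.5% (56.0 to 58.97) for H3122/H1819 and 50.8% (50.3 to 51.3) for H3122-only regions, and the interval for H1819-only regions was 53.7 to 56.3%. The intervals of H3122/H1819 and H3122-only regions overlapped within 1 kb and not within 10 or 100 kb, where the H3122/H1819 share was higher. Closest to the border of the rule was a region in 1p36.22 (chromosome 1, 12436325 to 12437093), 11 bp from an H2087 peak with a score of 141. Another in 14q23.1 (chromosome 14, 61062621 to 61063947) lay 12 bp from a strong H2087 peak with a score of 2561. One in 21q21.3 (chromosome 21, 26683979 to 26685043) lay 14 bp from one with a score of 88.1. On the other side of the border were 3-line regions whose H2087 peak scored just over 60, in 8q22.1 (60.2), 19p13.3 (60.4) and 9p23 (60.5).

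Along the genome, H3122/H1819 regions lay in darkly staining bands more often than did regions that included H2087. Their share there was close to that of all merged NKX2-1 regions. Dark Giemsa bands are gene-poor and replicate late. On the autosomes the 2 darkest stain classes held 26.2% (24.9 to 27.5) of the 4183 H3122/H1819 regions, 15.3% (13.97 to 16.7) of 3-line regions and 16.3% (15.4 to 17.2) of H3122/H2087 regions, differences of 10.9 points (9.0 to 12.8) and 9.90 points (8.30 to 11.5). They held 25.5% (25.1 to 25.8) of all merged regions and 26.7% (25.6 to 27.9) of H1819-only regions. The share was higher in H3122/H1819 regions on 19 and 20 of 20 chromosomes with such bands. H3122-only regions lay there more often still, at 30.1% (29.6 to 30.5), a difference of -3.88 points (-5.28 to -2.44). Intervals treat regions as independent, which neighbours are not. In the darkest class the density of H3122/H1819 regions was 0.813 times their autosomal mean, against 0.409 for 3-line, 0.413 for H3122/H2087 and 0.801 for all merged regions. Within the H3122/H1819 regions FOXA1 was found in 50.6% in unstained bands, 43.4% in the lightest stained class and 68.6% in the darkest. The share was also higher in the darkest than in unstained bands in other classes. It was 44.2% in unstained and 53.6% in the darkest bands for 3-line regions, and 42.3% and 54.8% for H3122/H2087 regions. For H3122-only regions it was 44.5% and 57.5%, and for all merged regions 36.4% and 50.6%. In each of these classes the lightest stained bands had the lowest share, so FOXA1 did not rise evenly with stain. Within stain classes the excess of FOXA1 was 8.13 points over 3-line regions and 7.94 points over H3122/H2087 regions.

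**Figure D4:**
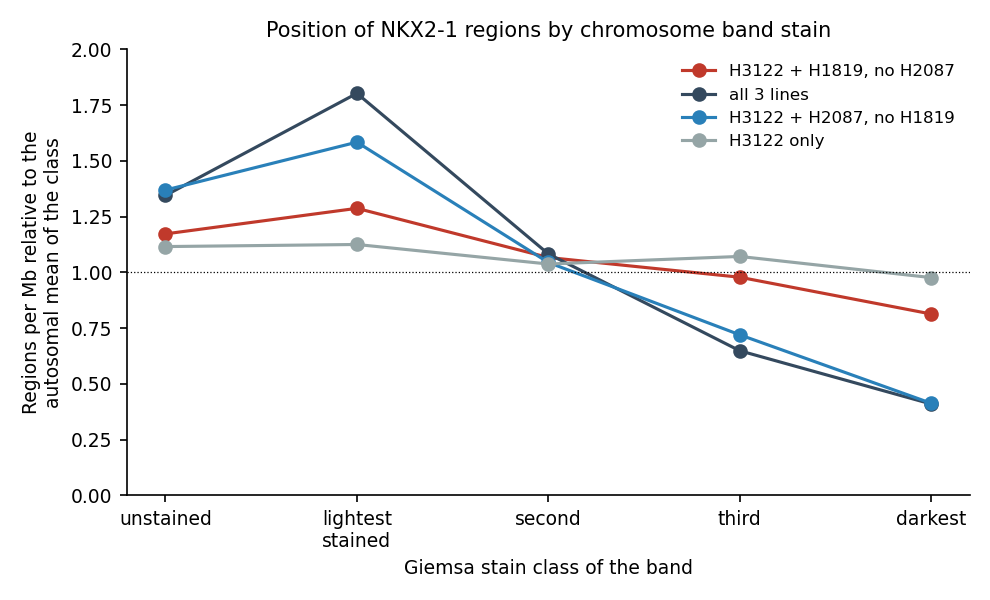
Regions per Mb relative to the autosomal mean of each class (y axis) are plotted by Giemsa stain class of the band (x axis) for 4 classes of region. H3122/H1819 regions thin out to 0.813 in the darkest bands, where 3-line regions are at 0.409 and H3122/H2087 regions at 0.413.

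By chromosome the ratio of H3122/H1819 to H3122/H2087 regions was 0.645 in all, and ran from 0.343 on chromosome 16 and 0.392 on chromosome 17 to 0.943 on chromosome 13 and 0.962 on chromosome 18. The largest number of H3122/H1819 regions per Mb was on chromosome 19, at 2.15, and the smallest on chromosome X, at 0.471, with 1.41 over the genome. As a share of merged NKX2-1 regions they were 8.19% on chromosome 19 and 5.76% on chromosome X, and the highest share was 9.05% on chromosome 18. Copy number was not measured, and its part in these ratios was not tested. A member was present in 702 of 811 bands of at least 1 Mb. The largest number was 40 of 254 merged regions (15.7%) in 6p22.3, of which 24 had FOXA1, beside 7 3-line and 16 H3122/H2087 regions. In 19p13.3 there were 25 of 282 (8.87%), and FOXA1 was in 3 of them. FOXA1 peaks in that band had 0.878 times their mean density. On chromosome 19 FOXA1 was in 31.4% of H3122/H1819, 27.9% of 3-line, 22.3% of H3122/H2087 and 26.8% of H3122-only regions. The other bands with most members were 5q23.2 with 23 of 214 (10.7%, 18 with FOXA1) and 6q21 with 23 of 273 (8.42%, 9 with FOXA1). Band 7q21.11 had 22 of 200 (11%, 16 with FOXA1). H3122/H1819 regions made up 7.13% of all merged regions.

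Per Mb the densest band was 13q22.1, with 16 H3122/H1819 regions or 7.62 per Mb, and it held no 3-line region and no H3122/H2087 region. The H2087 list had 0 peaks in this band. H3122 replicate 2 had 71 peaks there, 2.13 times its mean density, replicate 1 had 10, H1819 had 25, 2.67 times its mean, and FOXA1 had 84. By the RefSeq gene table, KLF5 falls in 13q22.1; it encodes a zinc-finger factor of epithelial progenitors. The bands of genes were read on GRCh38, so a gene and a region of a band are not shown to be close. The region of the band with the highest mean rank (chromosome 13, 72608817 to 72609569, described after its values were seen) scored 902 in replicate 2 and 986 in H1819, with a FOXA1 score of 425. Another (72568229 to 72569771) scored 3100 in H1819 and 192 in replicate 2, while one at 73079530 to 73081776 scored 1968 in replicate 2, 171 in H1819 and 3100 for FOXA1. The stretch without an H2087 peak ran over 3.26 Mb and held 17 H3122/H1819 regions among 87 NKX2-1 regions. Longer stretches without H2087 occurred elsewhere, such as 14.22 Mb from 13q31.1 to 13q32.1 with 16 H3122/H1819 regions among 247. In 6p22.3 and 6p22.2 a stretch of 3.28 Mb held 16 among 75, and in 6q23.2 one of 1.03 Mb held 12 among 46. On 5q23.2, 8 lay within 163 kb between H2087 peaks, and each had a FOXA1 peak and none a replicate 1 peak.

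**Figure D5:**
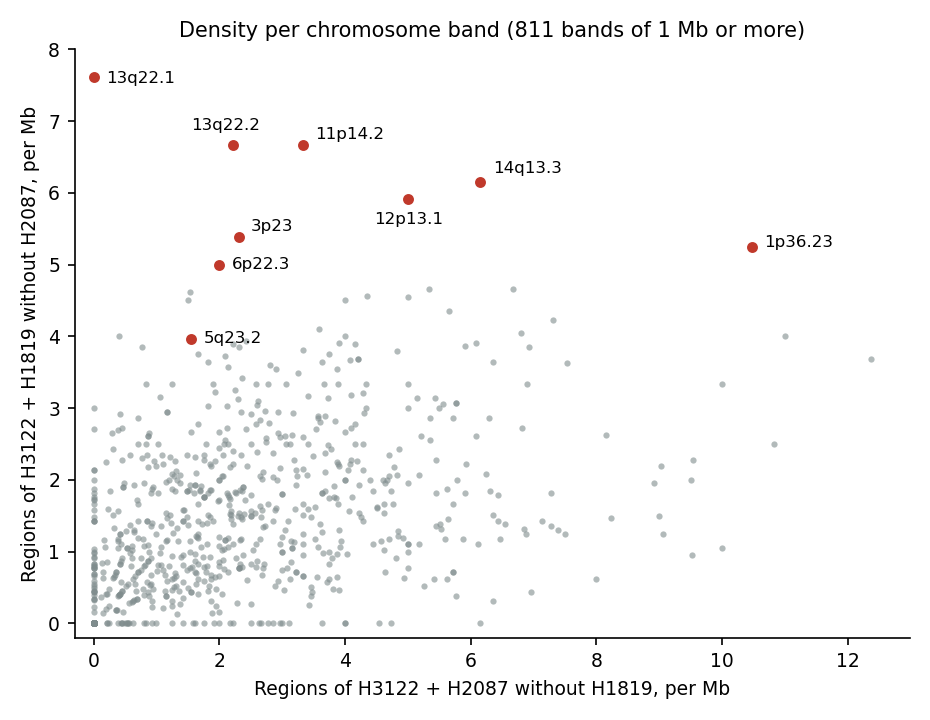
Each point is 1 of 811 bands of at least 1 Mb, with the density of H3122/H2087 regions on the x axis and of H3122/H1819 regions on the y axis, both per Mb. The point for 13q22.1 stands at 0 on the x axis and 7.62 on the y axis, while 1p36.23 is dense in both.

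The next densest bands were 11p14.2 and 13q22.2, each at 6.67 per Mb, then 14q13.3 at 6.15 and 12p13.1 at 5.91. In windows of 1 Mb the largest number was 12, at 72 to 73 Mb of chromosome 13 and at 133 to 134 Mb of chromosome 6 (6q23.2), 8.52 times the mean. Windows with 11 lay in 1p36.23, 13q22.2 and 18p11.31. The 1p36.23 window also held 10 3-line and 14 H3122/H2087 regions, so it was dense for NKX2-1 in every line, unlike that on 6q23.2, with 0 and 1. At short range, 687 of the 4256 regions, 16.1%, had another within 10 kb. The same share was not computed for other classes or for all merged regions. Neither it nor the groups below are thus shown to be particular to this class. Groups of 5 lay in 1q24.3, in 11q12.1 and at 2 places of 6p22.3. That in 11q12.1 spanned 13.4 kb (chromosome 11, 57296308 to 57309696), with FOXA1 in 4 of 5. One in 6p22.3 spanned 22.7 kb (chromosome 6, 21839414 to 21862123) and scored up to 1131 in replicate 2 and 1935 in H1819.

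Band 14q13.3 holds NKX2-1 itself, and 8 H3122/H1819 regions lay there, 5 with FOXA1 and 3 with replicate 1, among 58 merged regions. The strongest (chromosome 14, 36309735 to 36310800) scored 1794 in replicate 2, 186 in replicate 1 and 1422 in H1819, with a FOXA1 score of 2216, and lay 109 kb from the nearest H2087 peak. A second (36123773 to 36124567) scored 463, 72.8 and 355, with FOXA1 at 269. The others scored 213 in replicate 2 and 371 in H1819 at 35922365, 87.4 and 323 at 36130186, 168 and 175 at 36306197, and 145 and 409 at 36491523. At 36186681 the scores were 127 in replicate 2 and 66.6 in H1819, and at 36710640 they were 153 and 86.95. Scores are not scaled between libraries, so these pairs are not set against each other. The band held 8 H3122/H2087 regions and 1 3-line region. H2087 had 11 peaks in the band, 1.77 times its mean density, so its list was not empty there. The other lists were dense there too, at 3.11 times the mean in replicate 1, 2.42 in replicate 2, 2.59 in H1819 and 2.36 for FOXA1. The lines carry an NKX2-1 amplification per the labels. Copy number was not measured, and its part in these scores and densities was not tested.

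Of 80 genes in lists of lung and epithelial function, all were found in the RefSeq table, and 78 lay in a band with an H3122/H1819 region, where 702 of 811 bands had one. The median density was 1.82 per Mb over these genes, each given the density of its band, and 1.25 over all bands. A band with several listed genes thus counted once per gene, here and in the medians of the lists below. All bands include some without any NKX2-1 region, such as 13p13 and 9q11, so neither comparison shows an excess at these genes. Bands are large, so these counts place no region at a gene. Among 19 lung epithelial transcription factors all had such a band, with a median of 2.19 per Mb. Above the median were 3p13 with 3.33 per Mb (FOXP1, a forkhead repressor), 3q26.33 with 3.33 (SOX2, a factor of airway basal cells) and 12p12.3 with 2.94 (LMO3, a LIM-only cofactor). Below it were 17q24.3 with 0.789 (SOX9, a factor of distal lung tips in development), 7q31.1 with 1.11 (FOXP2, a relative of FOXP1) and 20p11.21 with 1.18 (FOXA2, a relative of FOXA1). The 14 alveolar type 2 genes had a median of 1.31 per Mb, with 6 regions in 10q22.3, the band of the surfactant protein genes SFTPA1, SFTPA2 and SFTPD, 6 in 2p11.2 (SFTPB) and 2 in 16p13.3 (ABCA3, the lamellar body lipid transporter). The densest band in that list was 3q27.2, with 7 of 44 merged regions (15.9%) or 4.67 per Mb (ETV5, an ETS factor of alveolar type 2 cells). The 7 airway secretory genes had a median of 1.07. The 11 feedback inhibitors of kinase signalling had a median of 2.16. Among them were ERRFI1, an inhibitor of EGFR, in 1p36.23 with 11 of 102 merged regions (10.8%), and DUSP16, a phosphatase of MAP kinases, in 12p13.2 with 2 of 72 (2.78%). The 10 receptor kinases and ligands had a median of 0.931. H3122/H1819 regions were 3 of 54 merged regions in 7p11.2 (5.56%, EGFR), 9 of 110 in 7q31.2 (8.18%, MET) and 1 of 44 in 12q13.2 (2.27%, ERBB3). Of the 9 junction genes, 8 had one (median 2.14), and 3q22.3, the band of the tight junction gene CLDN18, had none among 47 NKX2-1 regions. Of the 10 gastrointestinal genes, 9 had one, with a median of 1.65.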

How the data were processed

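Peaks of 5 immunoprecipitated libraries were used, 4 for NKX2-1 and 1 for FOXA1. Per the submitters' processing notes the tools were Bowtie, with the hg18 build, and MACS 1.4.0 for peaks. Calling thresholds and the input set against each list are not stated in the labels. The deposited score of each peak is the authors' own value, read as 10 times the negative log10 of its p-value; it is not scaled between libraries and many peaks share the value 3100. Scores were ranked within lists and not compared in size between them. Peaks were called on single libraries, and positions are 1-based in hg18.

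Peaks overlapping by at least 1 bp were merged, and each merged region was assigned a class from its NKX2-1 lists. For H3122, replicate 2 counted. Where a region held several peaks of a list, the best score was taken. Shares have 95% Wilson intervals and differences Newcombe intervals, which cover counting error only; matched differences are Mantel-Haenszel estimates over strata. Depth is unknown. The members and lists were chosen with earlier results of these data known. Named regions were the 10 first by mean rank of score, the 5 first with FOXA1 and replicate 1 and the 5 first with neither. The 5 bands and windows with most members, all members in 14q13.3 and 3 on each side of the border were also taken. Gene bands came from a RefSeq table of GRCh38 with GRCh38 bands, and region bands from hg18 bands of circlize 0.4.16 in R 4.3.3. Merging and classing were tested on simulated data. Computations ran in Python 3.11.15, with scipy 1.17.1 for tests, statsmodels 0.14.6 for p-value adjustment and pandas 2.3.3 for tables; figures were drawn in matplotlib 3.10.9. Sequence and annotation of hg18 were not used here.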

Additional observations from a re-analysis of the deposited data

How the results depend on the processing

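Of 68 alternatives over 9 results, 58 kept the result, some of them by construction. Equal windows of 200 bp, matching on width and matching on stain were chosen after seeing the data. With scores of at least 100 in each list the regions numbered 2572 and 11.2% had a replicate 1 peak, since that threshold removes most of the replicate 1 list. Without replicate 1 the regions numbered 4256 and the FOXA1 share was 54.3%. With replicate 1 standing for H3122 they numbered 938 and the share was 68.6%. Replicate 2 peaks still took part in the merging there, so replicate 2 was not fully left out. With both replicates required there were 920 regions and 69.6% had FOXA1. In windows of 200 bp the replicate 1 share was 19.7%. At matched replicate 2 scores the FOXA1 difference from H3122-only regions turned to -6.30 points and the replicate 1 difference from H3122/H2087 regions to -0.26 points; at matched width the FOXA1 difference was -0.94 points. The cause was not tested. Without replicate 1 the number of regions stayed at 4256. Requiring peak midpoints could not change that number by construction. Midpoints were not applied to replicate 1 peaks, so the replicate 1 share and its differences could not change under that alternative either. The 58 therefore include alternatives that could not move a result. Excess FOXA1 over 3-line regions and over H3122/H2087 regions kept direction and threshold under every alternative tried.

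Planned shares with a motif or a transcription start nearby and counts of genes within 50 kb were not run, since no hg18 genome or annotation was used here. No paired analysis was possible because replicate numbers exist in H3122 alone.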
